A study of Rattus norvegicus with 10 samples.

Results

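Transcripts of 41 genes of the proteasome and of ubiquitin conjugation, out of 32883 genes listed in the files, were followed in the choroid plexus, the secretory epithelial tissue of the brain ventricles. They are the genes with symbols starting with PSM or UBE in the gene tables of the study, and no symbol starting with UCH was found there. They comprised 14 core genes (6 PSMA and 8 PSMB), 13 cap genes (5 PSMC and 8 PSMD), the 2 activator genes, the assembly chaperone gene PSMG4 and 11 UBE genes. The table copy used for these names holds 1997 of the most abundant genes, so that other members of the families, among them PSMB8 and PSMB10 of the immunoproteasome, were not analysed here. Immunoproteasome-related members were PSMB9, PSME1 and PSME2.

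The proteasome is the barrel-shaped protease that degrades proteins tagged with ubiquitin. Its core is built from rings of PSMA (alpha) and PSMB (beta) subunits, of which PSMB5, PSMB6 and PSMB7 carry the protease sites. A cap of PSMC ATPases and PSMD subunits recognizes ubiquitinated proteins and feeds them into the core, and PSME1 and PSME2 form another activator of the core. In cells exposed to interferon, PSMB9 and related subunits take the place of the usual catalytic subunits, giving the immunoproteasome that prepares peptides for antigen presentation. UBE enzymes stand upstream and conjugate ubiquitin, or a relative such as NEDD8, to target proteins.

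RNA sequencing was performed on the choroid plexus of 10 female Wistar rats aged 27 weeks, 5 fed a nutrient source-matched control diet (control) and 5 fed a high fat diet (HFD), with 1 rat per library. The study chose its animals by body weight, taking control rats below and HFD-fed rats above a weight threshold, so that the groups differ by selection as well as by diet. The tissue label matched its markers, since all 11 epithelial markers, headed by TTR, were detected, with a summed rescaled TPM of 295710 to 536180 per rat, nearly all of it TTR. TPM, or length-scaled transcript abundances, give the share of a transcript among all transcripts of a rat and carry no read number, so the depth behind each value is unknown. Values were brought to one scale by the median over genes of a rat's ratio to the geometric mean of all 10 rats, and are given throughout as rescaled TPM. The scaling factor was 0.752 for control rat 1 and 0.951 to 1.14 for the other rats. Control rat 1 stood apart, with 1837 of 12183 genes more than 2-fold away from the other rats' median, compared with 170 to 235 in each of the others. Its mean effective transcript length was 789 bases, against 874 to 968. Fold changes of the members that moved by over 1.5 times when this rat was left out are given with and without it.

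Promoter sequence was read for 34 of the 41 genes from RefSeq (build GRCr8, matched by symbol), over the 250 bases before the annotated start. The letters TGANNNNGC, the core of the antioxidant response element through which the factor NFE2L1 is known to raise proteasome genes, were present on either strand in 14 of 34 members (41.2%) and in 34.8% of all promoters of the same length (21842 protein-coding genes). GGGCGG, the GC box, was present in 22 of 34 members (64.7%) and in 38.9% of all promoters. CCAAT was found in 14 of 34 members (41.2%) and in 35% of all promoters, and CACGTG, which reads the same on both strands, in 3 of 34 members (8.82%) and in 6.16% of all promoters. The core of the interferon-stimulated response element, searched as GAAA, any 2 bases and GAAA, was found in 5 of 34 members (14.7%) and in 3.27% of all promoters. All motifs were searched on both strands, and matches of different motifs may overlap. A match describes the letters in this window and does not show a binding site. Shown next are the 100 bases before the start of the catalytic subunit genes PSMB5 and PSMB6, of the immunoproteasome gene PSMB9 and of the activator gene PSME2, which are genes described in full below and hold the letters for the antioxidant or the interferon element close to the start. Other genes described below also hold such letters this close and are not shown, among them PSMB7, with TGANNNNGC on the minus strand at -81. Capitals mark TGANNNNGC in the first 3 sequences and the interferon-stimulated response element core in PSME2. In PSMB9 they also mark a GGGCGG that overlaps the TGANNNNGC. Positions count back from the start, with -1 as the last base before it. 
PSMB5: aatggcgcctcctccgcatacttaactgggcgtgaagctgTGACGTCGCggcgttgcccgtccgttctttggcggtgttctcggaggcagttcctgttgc
PSMB6: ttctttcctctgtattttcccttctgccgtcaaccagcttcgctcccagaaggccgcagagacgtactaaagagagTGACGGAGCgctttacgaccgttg
PSMB9: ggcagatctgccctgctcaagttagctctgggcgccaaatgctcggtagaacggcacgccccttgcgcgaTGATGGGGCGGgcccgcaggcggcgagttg
PSME2: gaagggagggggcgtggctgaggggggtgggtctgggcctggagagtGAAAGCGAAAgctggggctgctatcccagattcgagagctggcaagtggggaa
The PSMB5 stretch lies at chr15:32047380-32047479 on the minus strand, with its match starting at -60. The PSMB6 stretch lies at chr10:55737788-55737887 on the plus strand, with its match at -24. For PSMB9 the stretch is chr20:4668900-4668999 on the plus strand, with the match at -30. For PSME2 it is chr15:33052752-33052851 on the minus strand, with the match at -53.

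Within the core, PSMB1, a beta subunit without a protease site, was the most abundant transcript of all 41 genes in each of the 10 rats (mean rescaled TPM 517). PSMB6 (271) and PSMB5 (236) followed, and the lowest constitutive core genes were PSMA1 (116) and PSMA5 (104.2). PSMB9 was the lowest core gene in each of the 10 rats, at 49.7. Subunits that enter the core in equal number thus differed severalfold in transcript level. The cap genes were lower than most core genes, from PSMD3 (45.7), the lowest cap gene in every rat, to PSMC3 (121). The median level was 182 for the core, 83.3 for the cap and 73.1 for the UBE genes. Among the UBE genes UBE2D3 (184), which serves many ubiquitin ligases, and UBE2S (172), which extends ubiquitin chains with the anaphase-promoting complex, stood above UBE2N (95.7) in all 10 rats, and UBE2E1 (46) was the lowest. Many neighbours in these orders were not separated by the spread between rats. Of 13 neighbouring pairs in the core, 3 had the same order in all 10 rats, as did 4 of 12 in the cap and 1 of 10 among the UBE genes. Since genes entered through a table of abundant transcripts, the lowest level of the list was set by that table.

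**Figure D1:**
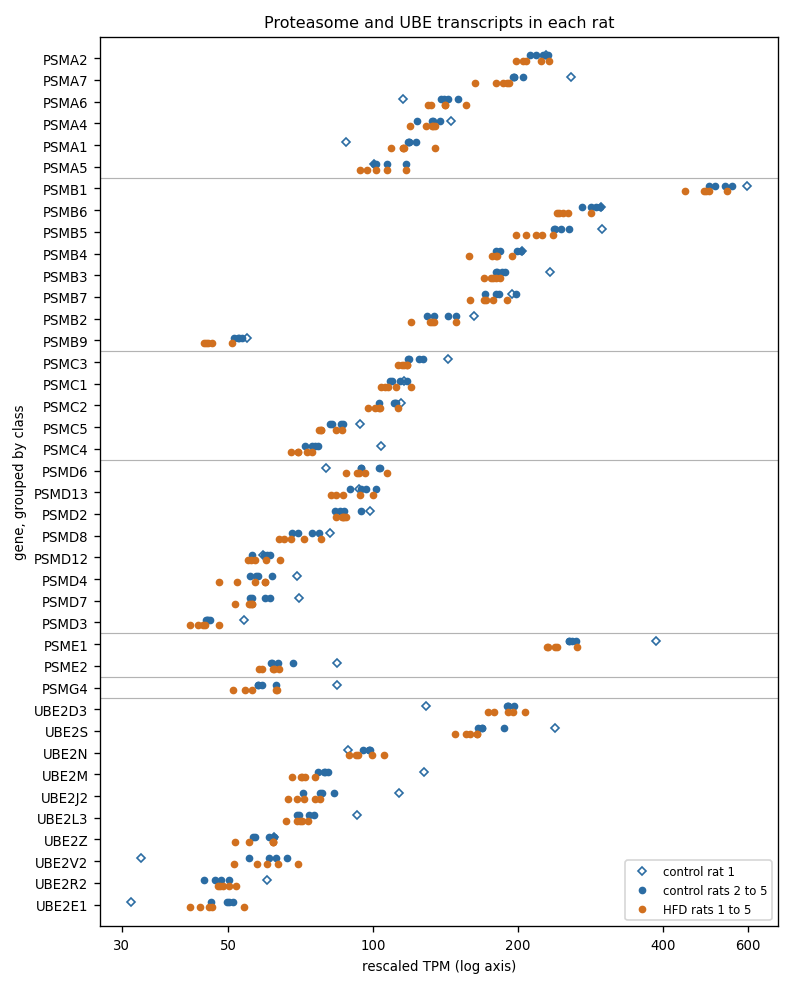
Rescaled TPM (log axis) of 40 of the 41 genes in each rat, grouped from top to bottom as PSMA, PSMB, PSMC, PSMD, PSME, PSMG4 and UBE genes. Blue points are control rats and orange points HFD-fed rats. The open diamond, control rat 1, lies away from the other control rats for many UBE genes, at 127 for UBE2M and 32.9 for UBE2V2.

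To determine whether the HFD was accompanied by altered expression of these genes, the diets were compared with limma over the 12183 genes whose rescaled TPM averaged 1 or more, and all 41 members passed this limit. None of the 41 genes had an adjusted p under 0.05 (background 0% of all genes tested), the lowest adjusted p being 0.542. Without adjustment, p was under 0.05 for 4 members (9.76%), all lower in HFD-fed rats, near the background of 8.6% of all genes tested (4.83% in this direction). Among the 2001 genes of the same tables, most of which are likewise from the abundant end, the share was 14.9%. That set also draws on the study's own list of 46 genes that differed between the diets in these rats. The 4 members were the core genes PSMB5, PSMB6, PSMB9 and PSMA7. The mean was lower in HFD-fed rats for 35 of the 41 genes (85.4%, beside 70.3% of the genes of the tables and 47.3% of all genes tested) and higher for 6, and the median log2 fold change was -0.09, beside -0.08 for the genes of the tables and 0.01 for all genes tested. The median of the list thus lay near that of the genes of the tables, while its share of lower genes was larger, a description without a test. The direction of the list changed with the scaling. TPM as deposited gave 19 lower and 22 higher genes, with a median of 0.009 where the median of all genes was 0.115, and no member with an unadjusted p under 0.05 (background 5.11%). Relative to all genes tested, the median of the members lay at -0.11 with either scaling. In tissue RNA, fewer cells of a type and less RNA per cell cannot be told apart.

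The 95% intervals of all 41 genes lay between a log2 fold change of -0.57 (UBE2M) and 0.54 (UBE2V2), and the upper limit corresponds to a 1.46-fold higher level. By class, the median log2 fold change was -0.04 for the PSMA genes (4 of 6 lower), -0.13 for the PSMB genes (8 of 8 lower), -0.09 for the cap (12 of 13 lower), -0.18 for the activator (2 of 2 lower) and -0.03 for the UBE genes (8 of 11 lower). The unadjusted p was under 0.05 for 4 of the 14 core genes, 0 of the 13 cap genes, 0 of the 2 activator genes and 0 of the 11 UBE genes, beside 8.6% of all genes tested and 14.9% of the genes of the tables. Leaving out control rat 1, it was under 0.05 for 4 core, 0 cap, 0 activator and 3 UBE genes. In that fit the share was 11.7% of all genes tested and 19.6% of the genes of the tables. No list test stands behind these counts. With TPM as deposited the medians were 0.06, -0.03, 0.01, -0.08 and 0.07 in the same order, so that only the PSMB and activator medians stayed below 0. Without control rat 1 they were -0.04, -0.10, -0.07, -0.08 and -0.04, with 14 of 14 core genes, 13 of 13 cap genes, 2 of 2 activator genes and 10 of 11 UBE genes lower. Every HFD-fed rat lay below every control rat for 6 members, PSMA7, PSMB5, PSMB9, PSMC3, UBE2S and UBE2M (background 3.42% of all genes tested and 2.02% in this direction, with 7.45% and 6.85% of the genes of the tables). With TPM as deposited this held for 0 members, but the share over all genes was not counted for that scaling.

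**Figure D2:**
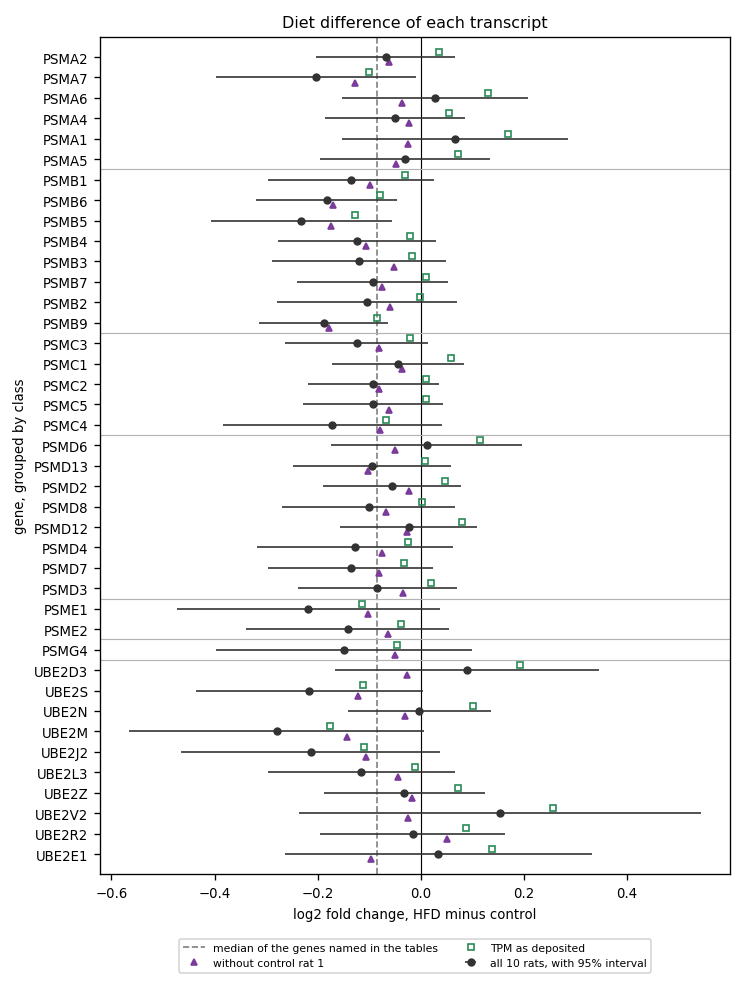
Log2 fold change (HFD minus control) of 40 of the 41 genes. Black points with bars show all 10 rats with the 95% interval from limma, triangles the fit without control rat 1, open squares TPM as deposited, and the dashed line the median of the genes of the tables (-0.08). The triangles run from -0.18 (PSMB9) to 0.05 (UBE2R2), and all but that of UBE2R2 lie below 0.

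The constitutive catalytic subunits were examined rat by rat. PSMB5 (ENSRNOG00000013386), which carries the chymotrypsin-like site, had a rescaled TPM of 299.5, 246, 239, 255 and 237 in control rats 1 to 5 and 225, 237, 218, 198 and 208 in HFD-fed rats 1 to 5. No HFD-fed rat reached the lowest control rat, though the gap was narrow for HFD-fed rat 2 beside control rat 5, and control rat 1 was the highest. The difference between the means exceeded the SD of either diet but failed the adjustment over all genes (HFD: 217 ± 15 vs control: 255 ± 25.6, SD, n = 5 each, log2 fold change -0.23, SE 0.08, exact permutation p = 0.00794, adjusted p 0.542 by limma). The smallest p that 5 rats against 5 allow is 0.00794. Without control rat 1 the log2 fold change was -0.17, and with TPM as deposited -0.13. PSMB6 (ENSRNOG00000019551), with the caspase-like site, had 298, 271, 291, 296 and 284 in control rats 1 to 5 and 254, 284, 248, 243 and 240.5 in HFD-fed rats 1 to 5. The groups overlapped, since HFD-fed rat 2 reached the range of the control rats (HFD: 254 ± 17.6 vs control: 288 ± 10.7, SD, n = 5 each, log2 fold change -0.18, SE 0.06, exact permutation p = 0.0238). Without control rat 1 its log2 fold change was -0.17, and with TPM as deposited -0.08. PSMB7 (ENSRNOG00000011732), with the trypsin-like site, had 194, 198, 171, 182 and 180.0 in control rats 1 to 5 and 169.8, 189.9, 172, 159 and 177 in HFD-fed rats 1 to 5. Here the groups overlapped widely, and the difference between the means was about as large as the SD of either diet (HFD: 174 ± 11.3 vs control: 185 ± 11.1, SD, n = 5 each, log2 fold change -0.09, SE 0.07, exact permutation p = 0.127). For PSMB5 and PSMB6 the unadjusted p by limma stayed under 0.05 whichever of the 10 rats was left out, whereas for PSMB7 it was never under 0.05. With TPM as deposited the unadjusted p by limma was 0.0995 for PSMB5 and 0.427 for PSMB6, and the groups of both genes overlapped.

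PSMB9 (ENSRNOG00000000459), the immunoproteasome counterpart of PSMB6, had 54.7, 53.4, 51.3, 52.3 and 52.7 in control rats 1 to 5 and 46.3, 45.4, 45, 44.6 and 51 in HFD-fed rats 1 to 5. All control rats lay within a narrow range, and HFD-fed rat 5 was close to the lowest of them while the other HFD-fed rats were clearly below. Its unadjusted p was the smallest of the 41 genes (HFD: 46.4 ± 2.61 vs control: 52.9 ± 1.28, SD, n = 5 each, log2 fold change -0.19, SE 0.06, exact permutation p = 0.00794, adjusted p 0.542 by limma). The log2 fold change was -0.18 without control rat 1 and -0.08 with TPM as deposited, where the groups overlapped (exact permutation p = 0.468). Because a ratio within a rat does not depend on its scaling, PSMB9 was also set against PSMB6. The ratio was 0.184, 0.197, 0.177, 0.177 and 0.186 in control rats 1 to 5 and 0.182, 0.16, 0.181, 0.183 and 0.212 in HFD-fed rats 1 to 5. HFD-fed rats held both the lowest and the highest ratio, rats 2 and 5 (HFD: 0.184 ± 0.0185 vs control: 0.184 ± 0.00829, SD, n = 5 each, exact permutation p = 0.952, 0.952 adjusted over 2 ratios). The 95% interval of the log2 difference ran from -0.17 to 0.16. The transcript balance between both subunits was therefore not distinguished between the diets.

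**Figure D3:**
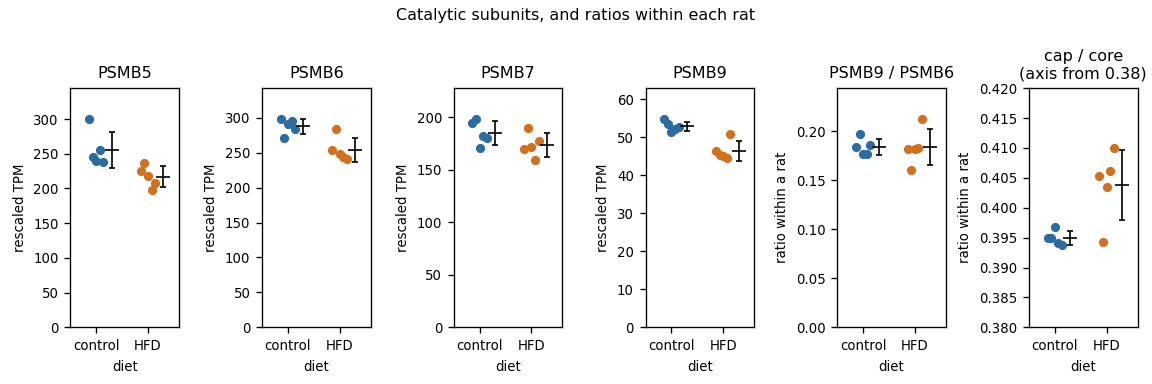
Rescaled TPM of the catalytic subunits PSMB5, PSMB6, PSMB7 and PSMB9 by diet, followed by the PSMB9 to PSMB6 ratio and the ratio of summed cap to summed core TPM within each rat. Points are rats and bars the mean ± SD (n = 5). The last axis runs from 0.38 to 0.42, where control rats lie between 0.394 and 0.397.

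PSME1 (ENSRNOG00000019041) and PSME2 (ENSRNOG00000019246) encode the subunits of the interferon-inducible activator. PSME1 had 388, 255, 255, 259 and 264 in control rats 1 to 5 and 239, 265, 241, 231 and 229 in HFD-fed rats 1 to 5. Control rat 1 was far above all other rats, and HFD-fed rat 2 lay just above the other control rats, which were above the other HFD-fed rats (HFD: 241 ± 14.5 vs control: 284 ± 58, SD, n = 5 each, log2 fold change -0.22, SE 0.12, exact permutation p = 0.0397). Without control rat 1 the log2 fold change was -0.10. With TPM as deposited it was -0.11, with an exact permutation p = 0.0159 and an unadjusted p by limma of 0.0992. PSME2 had 83.9, 68, 61.6, 63.4 and 61.3 in control rats 1 to 5 and 57.8, 62.4, 61.9, 63.7 and 58.7 in HFD-fed rats 1 to 5, again with control rat 1 highest (HFD: 60.9 ± 2.52 vs control: 67.6 ± 9.49, SD, n = 5 each, log2 fold change -0.14, SE 0.09, exact permutation p = 0.127). Leaving that rat out gave a log2 fold change of -0.06. The PSME1 to PSME2 ratio was 4.62, 3.75, 4.14, 4.08 and 4.32 in control rats 1 to 5 and 4.14, 4.26, 3.9, 3.62 and 3.91 in HFD-fed rats 1 to 5. It did not separate the diets (HFD: 3.96 ± 0.245 vs control: 4.18 ± 0.32, SD, n = 5 each, exact permutation p = 0.262, 0.524 adjusted over 2 ratios), with a 95% interval of the log2 difference from -0.22 to 0.07. Relative to the summed core genes, the activator genes stood at 0.158 in control rat 1 and at 0.115 to 0.122 in the other control rats, beside 0.116 to 0.12 in HFD-fed rats.

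Antigen presentation genes, listed for their link to the immunoproteasome, were represented by 8 of 13 listed genes. Besides B2M and the RT1 genes they included PDIA3, CALR and CANX, which do not themselves present peptides. None had an unadjusted p under 0.05. B2M, the light chain of class I molecules, did not separate the diets (HFD: 900.4 ± 98.6 vs control: 872 ± 55.3, SD, n = 5 each, log2 fold change 0.04, SE 0.09, exact permutation p = 0.619), and the median log2 fold change of the 8 genes was -0.06, or 0.01 without control rat 1. RT1-A1, a class I heavy chain gene, stood at separate levels in both diets. Its rescaled TPM was 9.15, 98, 100.1, 99.6 and 96.3 in control rats 1 to 5 and 101, 7.18, 90.6, 5.52 and 87 in HFD-fed rats 1 to 5. Control rat 1 and HFD-fed rats 2 and 4 were low and the other 7 rats high, so that its log2 fold change of -0.95 (exact permutation p = 0.206, and -1.63 without control rat 1) rests on which rats were low. Genes of this family are near-identical copies, and their values are uncertain where reads were shared. The other RT1 genes named, RT1-A2, RT1-CE5 and RT1-S3, had log2 fold changes of -0.06, -0.34 and -0.14, and 0.02, -0.24 and -0.27 without control rat 1. Of 7 macrophage markers, 3 were named in the tables (CD74, LYZ2 and RT1-DA), with LYZ2 the most abundant, and none was listed at 0. Their summed rescaled TPM was 474, 703, 551, 636 and 691 in control rats 1 to 5 and 701, 666, 679.8, 716 and 520.3 in HFD-fed rats 1 to 5. Control rat 1 and HFD-fed rat 5 had the lowest sums. The mean sum was 657 ± 78.6 in HFD-fed and 611 ± 97.3 in control rats (SD, n = 5 each), none of the 3 genes having an unadjusted p under 0.05. Each of 3 blood genes had a lower mean in HFD-fed rats, with a summed rescaled TPM of 3708 ± 932 against 4547 ± 1446 (SD, n = 5 each) and none with an unadjusted p under 0.05. The part of macrophages and of blood in the members' values was not tested.

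The alpha subunits form the outer rings of the core and its gate. PSMA7 (ENSRNOG00000056853) had 258, 205, 197, 197 and 195 in control rats 1 to 5 and 191, 189.6, 186, 163 and 180.1 in HFD-fed rats 1 to 5. All HFD-fed rats were below all control rats, but the gap was narrow, with HFD-fed rat 1 beside control rat 5 (HFD: 182 ± 11.4 vs control: 210.4 ± 27, SD, n = 5 each, log2 fold change -0.20, SE 0.09, exact permutation p = 0.00794). Control rat 1 widened the difference, which without it came to a log2 fold change of -0.13. The unadjusted p by limma, 0.0416 with all rats, was no longer under 0.05 without control rat 2 or without HFD-fed rat 3, 4 or 5, where it reached 0.101, nor with upper-quartile rescaling or TPM as deposited. PSMA2 (ENSRNOG00000049920), the most abundant alpha gene, had 229, 231, 218, 226 and 212 in control rats 1 to 5 and 207, 232, 224, 205 and 198 in HFD-fed rats 1 to 5, and its groups overlapped (HFD: 213 ± 14.3 vs control: 223 ± 7.84, SD, n = 5 each, log2 fold change -0.07, SE 0.06, exact permutation p = 0.198). PSMA6 and PSMA1 had slightly higher means in HFD-fed rats, at log2 fold changes of 0.03 and 0.07. Control rat 1 was the lowest of all rats in both (115 and 87.8), and without it the values were -0.04 and -0.02. PSMA4 and PSMA5 lay at -0.05 and -0.03, and at -0.02 and -0.05 without that rat. Of the beta genes that carry no protease site, PSMB1 (ENSRNOG00000001488) had 598, 538, 499, 557 and 514 in control rats 1 to 5 and 492, 545, 486, 498 and 444 in HFD-fed rats 1 to 5, with overlapping groups (HFD: 493 ± 35.8 vs control: 541 ± 38.8, SD, n = 5 each, log2 fold change -0.13, SE 0.07, exact permutation p = 0.0635). PSMB2, PSMB3 and PSMB4 had log2 fold changes between -0.12 and -0.10, and without control rat 1 between -0.11 and -0.05. RefSeq lists pseudogenes named after 23 of the 41 genes, among them 3 of PSMA7, 2 of PSMB6 and 4 of UBE2S but 0 of PSMB5 and PSMB9, and reads of near-identical copies can be shared between them by the quantification.

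The cap genes recognize, unfold and deubiquitinate substrates. PSMC3 (ENSRNOG00000011414), one of the unfolding ATPases, had 143, 124, 119, 127 and 118 in control rats 1 to 5 and 117, 116, 117, 115 and 113 in HFD-fed rats 1 to 5. The HFD-fed rats lay between 113 and 117 and just below the control rats, of which rat 1 was the highest (HFD: 116 ± 2 vs control: 126 ± 10.1, SD, n = 5 each, log2 fold change -0.12, SE 0.06, exact permutation p = 0.00794). Its unadjusted p by limma was 0.0723, and its log2 fold change without control rat 1 was -0.08. With TPM as deposited the log2 fold change was -0.02 (exact permutation p = 0.841) and the groups overlapped. Another ATPase, PSMC4 (ENSRNOG00000018994), had 103.6, 75.7, 76.7, 74.6 and 72.2 in control rats 1 to 5 and 73, 69.9, 69.6, 74.6 and 67.5 in HFD-fed rats 1 to 5. Its difference rested largely on control rat 1 (HFD: 70.9 ± 2.85 vs control: 80.6 ± 13, SD, n = 5 each, log2 fold change -0.17, SE 0.10, exact permutation p = 0.0397), and without that rat the log2 fold change moved from -0.17 to -0.08. PSMD7 (ENSRNOG00000014097), a lid subunit that pairs with the deubiquitinase of the cap, had 70.2, 55.4, 59.5, 61.1 and 55.9 in control rats 1 to 5 and 55.3, 55.5, 55.9, 51.5 and 56 in HFD-fed rats 1 to 5. The groups overlapped, with HFD-fed rat 4 lowest and control rat 1 highest (HFD: 54.8 ± 1.89 vs control: 60.4 ± 5.95, SD, n = 5 each, log2 fold change -0.14, SE 0.07, exact permutation p = 0.0635), and leaving out the latter gave -0.08. PSMD4 (ENSRNOG00000021042), a ubiquitin receptor, had 69.6, 57.1, 55.5, 57.5 and 61.5 in control rats 1 to 5 and 56.8, 59.6, 59.5, 47.9 and 52.1 in HFD-fed rats 1 to 5, and here too the groups overlapped (HFD: 55.2 ± 5.08 vs control: 60.2 ± 5.68, SD, n = 5 each, log2 fold change -0.13, SE 0.09, exact permutation p = 0.19), at -0.08 without control rat 1. PSMD6 (ENSRNOG00000006751), the most abundant PSMD gene, had 79.9, 103, 94.1, 103 and 94.1 in control rats 1 to 5 and 92.5, 107, 96.1, 93.6 and 87.6 in HFD-fed rats 1 to 5, with no separation of the diets (HFD: 95.4 ± 7.21 vs control: 94.8 ± 9.46, SD, n = 5 each, log2 fold change 0.01, SE 0.08, exact permutation p = 0.881), at -0.05 without control rat 1. The other 8 cap genes had log2 fold changes from -0.10 to -0.02. When control rat 1 was left out, PSMC5 moved from -0.09 to -0.06, PSMD2 from -0.06 to -0.02 and PSMD3 from -0.08 to -0.03, and the other 5 by less than 1.5 times. PSMG4, which assists assembly of the core, was at -0.15 with overlapping groups and at -0.05 without control rat 1.

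Set against each other within a rat, the summed cap genes stood at 0.395, 0.395, 0.397, 0.394 and 0.394 of the summed core genes in control rats 1 to 5. Although single genes of control rat 1 deviated by more than 1.3-fold, its cap to core ratio fell among those of the other control rats. In HFD-fed rats 1 to 5 the ratio was 0.405, 0.394, 0.403, 0.406 and 0.410. HFD-fed rats 1, 3, 4 and 5 were above every control rat, and HFD-fed rat 2 was among the control rats. The means were 0.404 ± 0.0059 against 0.395 ± 0.0012 (SD, n = 5 each), a log2 difference of 0.03, which is given as a description of sums over genes and without a test.

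Among the UBE genes, UBE2M (ENSRNOG00000027514), which conjugates NEDD8 and so activates the cullin ligases, had 127, 79.2, 79, 80.6 and 76.6 in control rats 1 to 5 and 71.2, 72, 70.8, 67.8 and 75.8 in HFD-fed rats 1 to 5. All HFD-fed rats were lower than all control rats, and control rat 1 was far above the rest (HFD: 71.5 ± 2.87 vs control: 88.6 ± 21.7, SD, n = 5 each, log2 fold change -0.28, SE 0.13, exact permutation p = 0.00794). Without control rat 1 the log2 fold change was -0.14, while the unadjusted p by limma went from 0.0548 to 0.00833 (adjusted p 0.291). UBE2S (ENSRNOG00000016930) had 239, 168, 187, 168 and 165 in control rats 1 to 5 and 148, 156, 165, 164 and 159 in HFD-fed rats 1 to 5. These groups did not overlap either, by a narrow gap between HFD-fed rat 3 and control rat 5 (HFD: 158 ± 6.78 vs control: 186 ± 30.9, SD, n = 5 each, log2 fold change -0.22, SE 0.10, exact permutation p = 0.00794). Leaving out control rat 1, the highest, gave -0.12. With TPM as deposited the log2 fold changes were -0.18 for UBE2M and -0.11 for UBE2S, and the groups of both genes overlapped. UBE2D3 (ENSRNOG00000013741) had 129, 191, 189.5, 196 and 191 in control rats 1 to 5 and 178, 207, 195, 191 and 173 in HFD-fed rats 1 to 5. Its groups overlapped (HFD: 189 ± 13.6 vs control: 179 ± 28.3, SD, n = 5 each, log2 fold change 0.09, SE 0.12, exact permutation p = 0.698), with control rat 1 far below all others, and the sign turned to -0.03 without that rat. UBE2N and UBE2V2 act as a pair that builds ubiquitin chains used in signalling. UBE2N ran from 88.8 to 105 over the 10 rats, with a log2 fold change that rounds to 0 and a 95% interval from -0.14 to 0.14, and it stood at -0.03 without control rat 1. UBE2V2 was 32.9 in control rat 1 and 55.2 to 66.3 in the other control rats, overlapping the HFD-fed rats at 51.3 to 69.8, and its log2 fold change was 0.15 with and -0.03 without control rat 1. UBE2J2, which acts at the endoplasmic reticulum, had a log2 fold change of -0.21, and of -0.11 without control rat 1. UBE2L3, UBE2Z, UBE2R2 and UBE2E1 had log2 fold changes between -0.11 and 0.03, and without control rat 1 they stood at -0.04, -0.02, 0.05 and -0.10 in this order.

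Variation among the members was concentrated in control rat 1. There, 13 of the 41 genes were more than 1.3-fold away from the median rat, 9 above and 4 below, whereas 0 of the 41 did so in any of the other 9 rats. Among the genes of the tables the share was 47.6% in control rat 1 and 1.7% to 3.2% in the other rats. Among all genes tested it was 50.1% in control rat 1 and 7.1% to 10.3% in the other rats. By class, the 13 members were 7 of 11 UBE genes, 2 of 2 activator genes, 2 of 14 core genes and 1 of 13 cap genes, and the remaining gene was PSMG4. Within the UBE genes control rat 1 ran from 0.534 times the median of control rats 2 to 5 for UBE2V2, 0.629 for UBE2E1 and 0.675 for UBE2D3 up to 1.42 for UBE2S, 1.45 for UBE2J2 and 1.61 for UBE2M. It was the highest of all rats for 26 members and the lowest for 8. The SD of the log2 values was larger in control than in HFD-fed rats for 26 of 41 genes with control rat 1 and for 6 of 41 without it. The median SD was 0.131 in control rats, 0.0552 in control rats 2 to 5 and 0.0932 in HFD-fed rats. In the same order it was 0.185, 0.079 and 0.102 for the genes of the tables, and 0.244, 0.128 and 0.141 for all genes tested. The wider spread through control rat 1 was thus not particular to the members. For the counts of highest and lowest values and of larger SDs, the shares over all genes were not counted. Control rat 1 also had the highest sum of epithelial markers (536180 against 324460 to 333720 in the other control rats). The part of this sum and of its short mean transcript length in the members' values was not tested.

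**Figure D4:**
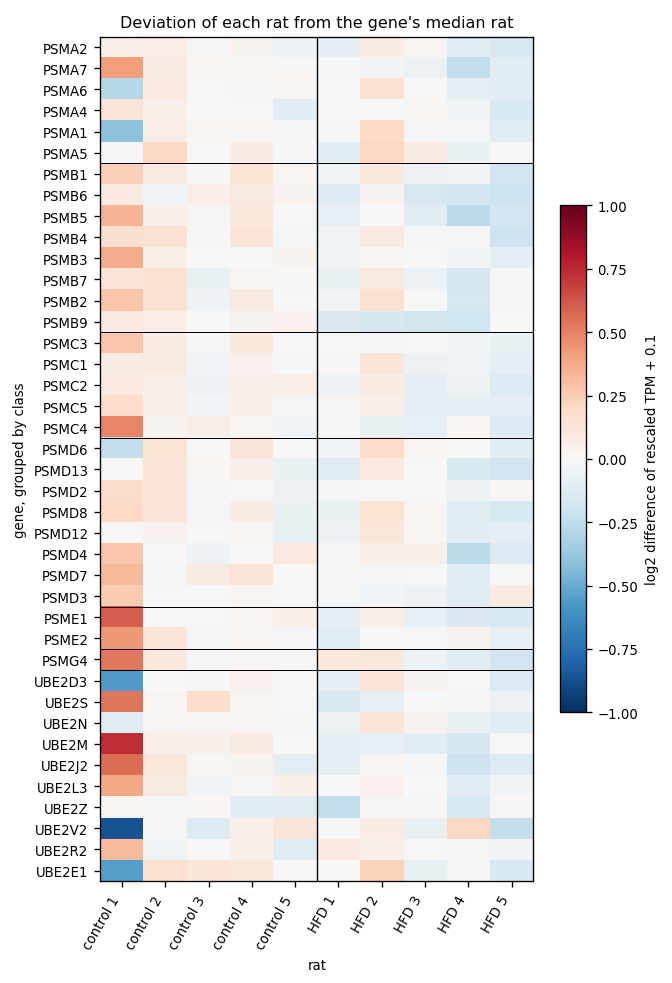
Difference of each rat from the median of the 10 rats for 40 of the 41 genes (log2 of rescaled TPM + 0.1, red above and blue below), with control rats left and HFD-fed rats right of the vertical line. The column of control rat 1 holds both the strongest red (UBE2M, 0.74) and the strongest blue (UBE2V2, -0.87).

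**Figure D5:**
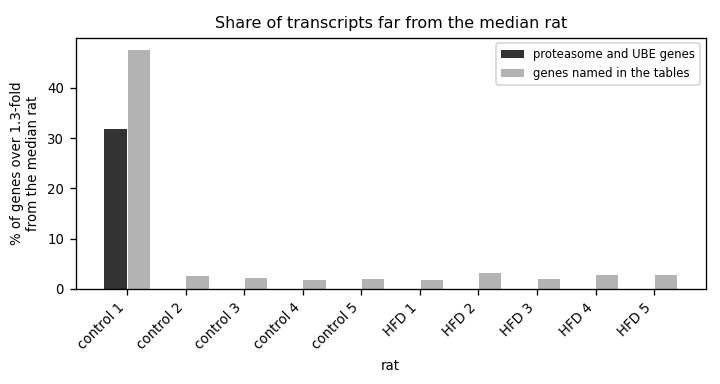
Percent of genes more than 1.3-fold away from the median rat (vertical axis), for each rat (horizontal axis), for the 41 members and for the genes of the tables. In control rat 1 the share was 31.7% of the members, and in the other 9 rats it was 0.

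With control rat 1 left out, none of the 41 genes had an adjusted p under 0.05 and 7 had an unadjusted p under 0.05 (17.1%, background 11.7% of all genes tested and 19.6% of the genes of the tables). All 7 were lower in HFD-fed rats (background 6.33% in this direction). They included the 4 core genes already named, UBE2M and UBE2S. The mean was lower in HFD-fed rats for 40 of 41 genes (97.6%, beside 74% of the genes of the tables and 49.8% of all genes tested), the exception being UBE2R2 at 0.05, and the median log2 fold change was -0.06, as in the genes of the tables at -0.06. The direction was then the same with either scaling, as TPM as deposited also gave 40 lower genes and 1 higher gene. A fit that kept all rats but weighted them by their deviation (array weights) gave 10 members with an unadjusted p under 0.05, all lower (background 15.3% of all genes tested, 8.2% in this direction, and 25% of the genes of the tables), adding PSMB1, PSMC3 and PSME1.

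Of 60 other genes of the ubiquitin system listed for comparison, 43 were named in the tables. None had an adjusted p under 0.05, 5 had an unadjusted p under 0.05 (11.6%, beside 8.6% of all genes tested and 14.9% of the genes of the tables), all lower in HFD-fed rats (backgrounds of 4.83% and 13.3% in this direction), and 31 of 43 had a lower mean (72.1%, beside 70.3% of the genes of the tables). With other settings there were 18 lower and 25 higher genes with TPM as deposited and 38 lower and 5 higher without control rat 1. UBL5, UBL3, SQSTM1 and COPS6 were among those 5 whose unadjusted p was under 0.05. The polyubiquitin gene UBB had a log2 fold change of -0.15 (-0.06 without control rat 1), within the spread between rats by an exact permutation test (p = 0.206). UBL5, a ubiquitin-like protein of splicing, was lower in every HFD-fed rat than in every control rat (HFD: 517 ± 22.3 vs control: 613 ± 94.7, SD, n = 5 each, log2 fold change -0.23, SE 0.10, exact permutation p = 0.00794), at -0.15 without control rat 1. With TPM as deposited UBL5 was at -0.13 and its groups overlapped. NEDD8 itself, which UBE2M conjugates, stood at a log2 difference of -0.12 (exact permutation p = 0.0476), and at -0.02 with TPM as deposited (exact permutation p = 0.698). POMP, which matures the core, was at -0.07 (exact permutation p = 0.381, and -0.11 without control rat 1), and the cap components ADRM1 and SEM1 were at -0.22 and -0.17 (exact permutation p = 0.0397 and 0.0714), or -0.11 and -0.15 without control rat 1. With TPM as deposited ADRM1 and SEM1 were at -0.11 and -0.07 (exact permutation p = 0.175 and 0.476). VCP, the ATPase that extracts ubiquitinated proteins, differed little between the diets (HFD: 125 ± 2.74 vs control: 127 ± 3.13, SD, n = 5 each, log2 fold change -0.02, SE 0.05, exact permutation p = 0.468, and -0.01 without control rat 1). Of 10 ligase genes 5 had a lower mean, against 8 without control rat 1 and 2 with TPM as deposited, and RBX1, the RING subunit of cullin ligases, moved from -0.11 to -0.22 when control rat 1 was left out.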

How the data were processed

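RNA from the choroid plexus of the lateral and the fourth ventricles of 10 rats was sequenced, 1 rat per library. Per the submitters' processing notes, reads were aligned with STAR 2.7.2a to Rnor_6.0 and quantified per gene with RSEM 1.3.3. The deposited TPM, made by the authors, are relative within a rat and carry no read depth, so no counting interval was possible. The deposited FPKM by the authors served only for the mean effective transcript length. Gene symbols came from the study's tables through Ensembl identifiers, the fold changes of those tables were not used, and 7 symbols with 2 identifiers were left out. TPM were rescaled by the median ratio to the geometric mean over 12037 genes, and log2(rescaled TPM + 0.1) was tested with limma 3.58.1 (R 4.3.3, trended variance) on the 12183 genes with a mean of at least 1, with Benjamini-Hochberg adjustment over all of them. Fold changes are on this log2 scale, so that the pseudocount of 0.1 slightly lowers those of low genes. Single values were compared with a two-sided exact permutation test over 252 assignments, and these p-values are not adjusted except for the 2 ratios. The script was tested on simulated data. The 41 members and the lists of other genes were chosen with earlier results of these data known. Described rat by rat were members with an unadjusted p under 0.05, catalytic, immunoproteasome and activator genes, and in each class the 2 largest absolute fold changes and the most abundant gene. Further genes named in the text were chosen with their values in view. The values of some single genes are not reported here. Replicate numbers are shared by both diets, and their pairing was checked. Alternatives covered scaling, pseudocount, filter, variance and array weights, the replicate block and leaving out each rat. Separate animals were sampled, but extraction or sequencing batches are not given in the sources used here.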

Additional observations from a re-analysis of the deposited data

Results flagged for a closer look

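A rat was singled out within its diet when its gap to the nearest rat, divided by the range of the 5 rats (Dixon's ratio), was above 0.71. Of 106 groups of values checked, 22 passed, where chance gives about 1 in 20, 19 of them through control rat 1. It was high in rescaled TPM for PSMA7 (258 against 195 to 205, ratio 0.849), PSMB5 (299.5 against 237 to 255, ratio 0.719), PSMB3 (233 against 180.3 to 188, ratio 0.85), PSMC4 (103.6 against 72.2 to 76.7, ratio 0.856), PSMD3 (54 against 45 to 45.8, ratio 0.91), PSME1 (388 against 255 to 264, ratio 0.929), PSMG4 (84 against 57.7 to 62.7, ratio 0.81), UBE2M (127 against 76.6 to 80.6, ratio 0.921), UBE2J2 (113 against 71.4 to 82.9, ratio 0.724), UBE2L3 (92.4 against 69.4 to 75.3, ratio 0.745). It was low for PSMA1 (87.8 against 118 to 123, ratio 0.871), UBE2D3 (129 against 189.5 to 196, ratio 0.899), UBE2E1 (31.4 against 45.9 to 51.2, ratio 0.733). Its log2 ratio of the summed activator to the summed core genes was -2.66 against -3.12 to -3.03 (ratio 0.803), and that of UBE2M to UBE2N was 0.519 against -0.317 to -0.281 (ratio 0.957). The same rat was singled out for its scaling factor (ratio 0.884), its mean effective transcript length (ratio 0.9), its number of genes over 2-fold from the other rats (ratio 0.97) and the percent of its TPM that came from the 41 genes, 0.432% against 0.518% to 0.549% (ratio 0.738). That share is of TPM as deposited, whereas after rescaling the summed members of control rat 1 were the highest of the 10 rats. The other rats past the limit were HFD-fed rat 2, high for PSMA1 (135 against 109 to 116, ratio 0.73), HFD-fed rat 5, high for PSMB9 (51 against 44.6 to 46.3, ratio 0.735), and HFD-fed rat 4, low for PSMD7 (51.5 against 55.3 to 56, ratio 0.848).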

How the results depend on the processing

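None of the 41 members had an adjusted p under 0.05 in any of the 19 alternatives. Over all genes, adjusted p under 0.05 was found for 1 gene without a filter on low values and 3 with array weights. Unadjusted p under 0.05 was found for 624 genes with TPM as deposited and 872 with TPM as deposited without control rat 1. With upper-quartile rescaling it was found for 1007 genes, and for 618 when rescaled TPM had to average 10 or more. Array weights gave 1869 genes, and leaving out 1 rat gave 794 to 1440. Among the members the number was 0 with TPM as deposited, 2 with TPM as deposited and control rat 1 left out, 10 with array weights and 3 to 7 with 1 rat left out, where 7 was reached without control rat 1 and without control rat 5. For the other ubiquitin system genes it was 1 with TPM as deposited, 1 with upper-quartile rescaling, 10 with array weights, 2 with TPM as deposited without control rat 1, and 0 to 8 with 1 rat left out (0 without HFD-fed rat 4 and 8 without control rat 5 or HFD-fed rat 2). For antigen presentation genes it was 1 with array weights and 0 to 1 with 1 rat left out.

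With TPM as deposited the median log2 fold change was 0.0086 for all members, -0.0087 for the core, 0.0103 for the cap and 0.0714 for the UBE genes, and PSMA2 was at 0.0352 and PSMB7 at 0.0105. PSMD6 was at -0.0641 with array weights, at -0.0379 with TPM as deposited without control rat 1, and at -0.0501 to 0.0427 with 1 rat left out. UBE2D3 was at -0.0333, -0.0143 and -0.0265 to 0.126 in the same order. The log2 ratio of PSMB9 to PSMB6 ran from -0.0593 to 0.0424 with 1 rat left out. The cause of these changes was not tested. The other 13 genes described rat by rat kept their direction in every alternative.

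Rats with the same replicate number did not deviate together in every pair (correlations -0.0379 to 0.116), so the numbers were not taken as pairs. With the number as a replicate block, 1141 genes, 4 members and 3 other ubiquitin system genes had an unadjusted p under 0.05. The lack of read depth and of gene names beyond abundant transcripts, the selection of rats by weight and the 5 rats per diet limit what can be told from these data.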

Other observations

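Markers of the other cell types of the tissue were few among the named genes. DCN, the only 1 of 5 stromal markers named, had a rescaled TPM of 116 in control rat 1, 139 to 229 in the other control rats and 159 to 225 in HFD-fed rats. PLVAP, 1 of 4 endothelial markers, had 96.8 in control rat 1, 53.4 to 62 in the other control rats and 50.8 to 66.7 in HFD-fed rats. RGS5, 1 of 3 mural cell markers, had 42.5 in control rat 1, 105 to 109.6 in the other control rats and 100.4 to 128 in HFD-fed rats. None of these 3 genes was listed at 0, and no ependymal, neuronal or glial marker of the lists was named in the tables. Epithelial markers, of which TTR was the most abundant, summed to 536180 in control rat 1, 324460 to 333720 in the other control rats and 295710 to 412260 in HFD-fed rats. Of the 11 epithelial markers 4 had a lower mean in HFD-fed rats, and the median log2 fold change was 0.04. The unadjusted p by limma was under 0.05 for 2 of the 11, both higher in HFD-fed rats. The background was 8.6% of all genes tested and 14.9% of the genes of the tables. In the higher direction it was 459 of 12183 genes tested and 32 of 2001 genes of the tables. No list test stands behind this count.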
